A study of Mus musculus with 4 samples.

Results

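The transcripts described here are nuclear genes of respiratory complex I in mouse hippocampus. They were chosen by name: every gene whose symbol begins with Nduf followed by a, ab, af, b, c, s or v and a number, except Ndufs5. The rule found 44 genes among the 18492 listed in any library. All 44 were listed in all 4 libraries, and all 44 were among the 13186 genes compared, which had a mean of at least 1 RPKM (reads per kilobase of gene length, scaled to the reads of the library). By role they were 7 core subunits, 28 accessory subunits, 7 assembly factors and 2 further genes that carry an Nduf name, Ndufa4 and Ndufa4l2.

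Complex I takes electrons from NADH, passes them along a chain of iron-sulfur clusters to ubiquinone and pumps protons across the inner mitochondrial membrane. Core subunits do this chemistry; the nuclear ones sit in the matrix arm, and mitochondrial DNA encodes those of the membrane arm. Accessory subunits surround and stabilise the core, and assembly factors build the complex and are then released. Neurons depend heavily on oxidative phosphorylation, and complex I is also a source of the superoxide from which oxidised bases in DNA can arise.

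Each library came from the hippocampus of C57BL/6 mice aged 6 months, and there was 1 for each genotype: wild type (WT), Ogg1-/- (Ogg1 KO), Mutyh-/- (Mutyh KO) and a library titled as the double knockout (DKO), whose genotype label reads Ogg-/- Mutyh-/-. Ogg1 excises 8-oxoguanine from DNA, and Mutyh removes adenine mispaired with it. The sex of the animals, how many were used per library and how the alleles were made were not stated in the sources used here. The design puts each loss and the combined loss beside WT. With 1 library per genotype, no difference below has a replicate check and none was tested: each statement compares libraries, not genotypes.

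The targeted genes were read first. The WT library held 94 reads of Ogg1, the library labelled Ogg1 KO 130, Mutyh KO 81 and the library labelled DKO 103, so the read number goes against the labels Ogg1 KO and DKO. The covered length of Ogg1 was 86.7% (WT) and 81.5% (Mutyh KO), but 47.2% (Ogg1 KO) and 46.4% (DKO), and this measure separates the libraries as labelled. Mutyh had 39, 35, 15 and 20 reads in the same order. In what follows each genotype name stands for the library with that label, and every direction given for Ogg1 KO or DKO rests on its label.

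Each library held between 17.02 M and 18.20 M unique reads (M, mega). The 10 hippocampal neuron markers, among them Prox1, Wfs1 and Fibcd1, were all above the limit for comparison, and together took 5167, 5041, 4786 and 4976 reads per M in WT, Ogg1 KO, Mutyh KO and DKO. Most of these reads came from Snap25 and Slc17a7, so the sum says little about the other markers. Singly, 7 of the 10 were below WT and 3 above in Ogg1 KO and also in Mutyh KO, with 6 below and 4 above in DKO. Fibcd1 had 3854, 2658, 2874 and 3623 reads. The 12 markers of choroid plexus, the epithelium that makes cerebrospinal fluid, took 239, 3182, 3099 and 1564 reads per M in the same order, and were not at 0 in any library. Markers of glia took 4536, 5045, 5147 and 4701 reads per M, those of endothelium and blood 186, 202, 234 and 212, and those of heart and skeletal muscle 34.2, 10.2, 38.8 and 37.3. Ribosomal RNA took 0.733%, 0.351%, 1.37% and 1.48% of the reads. Xist, the RNA of the inactive X chromosome, had 14, 23, 10307 and 29 reads in WT, Ogg1 KO, Mutyh KO and DKO, so Mutyh KO stands apart, and genotype and sex cannot be told apart where the sex of the animals is not stated. The part of these in the differences below was not tested beyond the change of library total that is given with them.

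Complex I transcripts as a group differed little between the 4 libraries. The 44 genes together took 2026, 2067, 1938 and 1930 reads per M in WT, Ogg1 KO, Mutyh KO and DKO. Ogg1 KO was at 1.02-fold of WT (95% interval 1.01 to 1.04), Mutyh KO at 0.957-fold (0.942 to 0.971) and DKO at 0.953-fold (0.939 to 0.967). The lower bound for Ogg1 KO depends on the scaling. Median-of-ratios scaling, with totals at 0.9909 (WT) and 1.0036 (Ogg1 KO) of the deposited totals, brings it below 1. The sum of the 44 genes includes Ndufa4, now known as a subunit of cytochrome c oxidase. In Ogg1 KO, Ndufa4 and Ndufa4l2 together were at 1.27-fold of WT (1.19 to 1.36). Accessory subunits were at 1.01-fold there (0.990 to 1.03) and assembly factors at 1.06-fold (0.998 to 1.13). A fold here is a ratio of reads per library total, and its exact interval covers counting error only. In whole tissue, fewer cells of a type and less RNA per cell cannot be told apart. For 33 of the 44 genes the highest RPKM was at most 25% above the lowest, as it was for 66.1% of all compared genes.

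No member differed 2-fold in any of the 5 comparisons. Of all compared genes, 0.554% were at least 2-fold higher and 0.212% lower in Ogg1 KO than in WT, with 0.743% and 0.091% in Mutyh KO and 0.546% and 0.0455% in DKO. For DKO the shares were 0.303% and 0.0834% relative to Ogg1 KO, and 0.091% and 0.212% relative to Mutyh KO. The percentages that follow in parentheses are likewise the share of all compared genes that met the same limit. On the log2(RPKM + 1) scale, which understates differences of low genes, 2 members were at least 25% higher in Ogg1 KO than in WT (6.87%) and 3 were at least 20% lower, the same ratio turned over (3.57%). The higher ones were Ndufa3 and Ndufa4, and the lower ones were Ndufa2, Ndufa13 and Ndufaf5. In Mutyh KO, 0 members were 25% higher than in WT (8.24%) and 2 were lower, Ndufa7 and Ndufa4l2 (1.92%). In DKO, 0 were higher (5.87%) and 2 were lower, Ndufa1 and Ndufa4l2 (2.55%). With 44 genes, counts of this size are close to the background shares. No member was 25% above WT in Mutyh KO or DKO, where the background shares would also give only a few genes. The shares were not matched for level: the median of the mean RPKM was 48.4 for members and 9.97 for all compared genes.

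**Figure D1:**
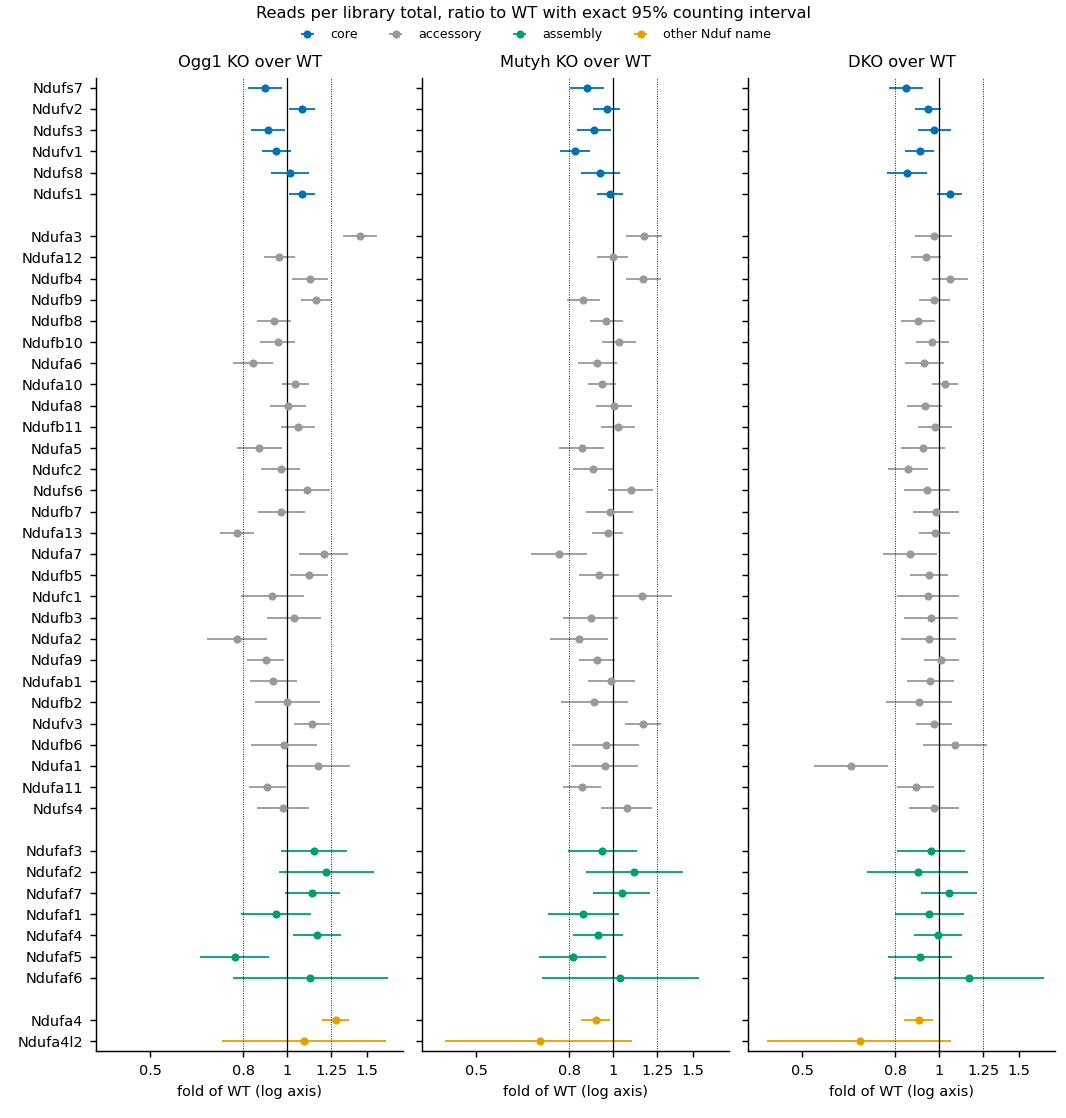
Ratio of reads per library total to WT (log axis) for 43 of the 44 genes in the libraries labelled Ogg1 KO, Mutyh KO and DKO, 1 library each, with bars for the exact 95% counting interval. Dotted lines mark 25% higher and 20% lower; the points scatter to both sides of WT in Ogg1 KO and lie mostly below it in Mutyh KO and DKO, with Ndufa1 lowest in DKO.

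The direction was more uniform than the size. In Mutyh KO 32 of the 44 genes were below WT (47.0% of all compared genes), and in DKO 37 of 44 were (50.7%), while in Ogg1 KO 20 of 44 were (45.4%). The median log2 ratio to WT was 0.01, -0.08 and -0.07 for Ogg1 KO, Mutyh KO and DKO, beside 0.02, 0.01 and -0.00 over all compared genes. The 3 comparisons share the same WT library. Counting intervals lay below 1 for 9 members and above 1 for 10 in Ogg1 KO (16.2% and 21.3%). In Mutyh KO they lay below 1 for 12 and above 1 for 3 (16.4% and 19.8%), and in DKO for 9 and 0 (17.2% and 16.2%). Beside these shares of all compared genes, members with an interval above 1 were few in Mutyh KO and DKO, and those with an interval below 1 were 27.3% of the 44 in Mutyh KO. The Mutyh KO library also stands apart in Xist, and the part of this in its comparisons was not tested.

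The 6 nuclear core subunits described below had 33.5 to 83.3 RPKM. Together they took 457, 456, 421 and 431 reads per M in WT, Ogg1 KO, Mutyh KO and DKO. Their sum in Mutyh KO was 0.920-fold of WT (0.892 to 0.950) and in DKO 0.943-fold (0.914 to 0.972), while Ogg1 KO was at 0.997-fold (0.967 to 1.03). Each of the 6 was lower in Mutyh KO than in WT, and 5 of the 6 were lower in DKO. In Ogg1 KO 3 of the 6 were lower.

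Ndufv1, which binds NADH and the flavin that takes its electrons, had 1552, 1380, 1209 and 1414 reads in WT, Ogg1 KO, Mutyh KO and DKO, or 54.5, 51.6, 44.9 and 49.4 RPKM. It was the core subunit furthest below WT in Mutyh KO, at 0.823-fold (0.763 to 0.888), with DKO at 0.907-fold (0.843 to 0.975). Its partner Ndufv2, which holds the iron-sulfur cluster on the far side of the flavin, had 1804, 1824, 1653 and 1715 reads in the same order (67.6, 72.8, 65.5 and 64.0 RPKM). Ndufv2 was lowest in DKO and highest in Ogg1 KO, where it was 1.08-fold of WT (1.01 to 1.15).

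Ndufs1, the largest subunit and the carrier of several iron-sulfur clusters, had 1809, 1829, 1685 and 1916 reads in WT, Ogg1 KO, Mutyh KO and DKO (34.0, 36.6, 33.5 and 35.9 RPKM). It was the core subunit that stood above WT in DKO, with an interval that includes 1 (1.05-fold, 0.988 to 1.12). Ndufs1 was also higher with Ogg1 absent in both Mutyh backgrounds, at 1.08-fold (1.01 to 1.15) in Ogg1 KO over WT and 1.07-fold (1.003 to 1.14) in DKO over Mutyh KO. Ndufb9 was the other member with both of these intervals above 1, where 2.38% of all compared genes had them. The lower bound of Ndufs1 in Ogg1 KO over WT, like that of Ndufv2, is close to 1 and depends on the scaling. Median-of-ratios scaling set the library totals to 0.9909 (WT) and 1.0036 (Ogg1 KO) of the deposited totals, which brings both bounds below 1.

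Ndufs7, a subunit at the ubiquinone site, had 1144, 959, 948 and 974 reads in WT, Ogg1 KO, Mutyh KO and DKO (83.3, 74.3, 72.9 and 70.6 RPKM). WT was the highest library for Ndufs7, and the knockouts lay close together at 0.892-fold (0.818 to 0.973), 0.876-fold (0.803 to 0.955) and 0.847-fold (0.777 to 0.924). It was the core subunit whose interval was below 1 in all 3 knockouts.

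Ndufs8 carries the clusters that hand electrons on towards ubiquinone. Its reads were 853, 813, 757 and 728 in WT, Ogg1 KO, Mutyh KO and DKO (48.9, 49.6, 45.8 and 41.5 RPKM), and DKO was 0.849-fold of WT (0.768 to 0.939). Ndufs3, a scaffold of the matrix arm without a cluster, had 1126, 960, 967 and 1103 reads (66.1, 60.0, 60.0 and 64.5 RPKM). Ndufs3 was at 0.907-fold of WT (0.832 to 0.990) in both single knockouts, and DKO was beside WT at 0.975-fold (0.897 to 1.06).

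**Figure D2:**
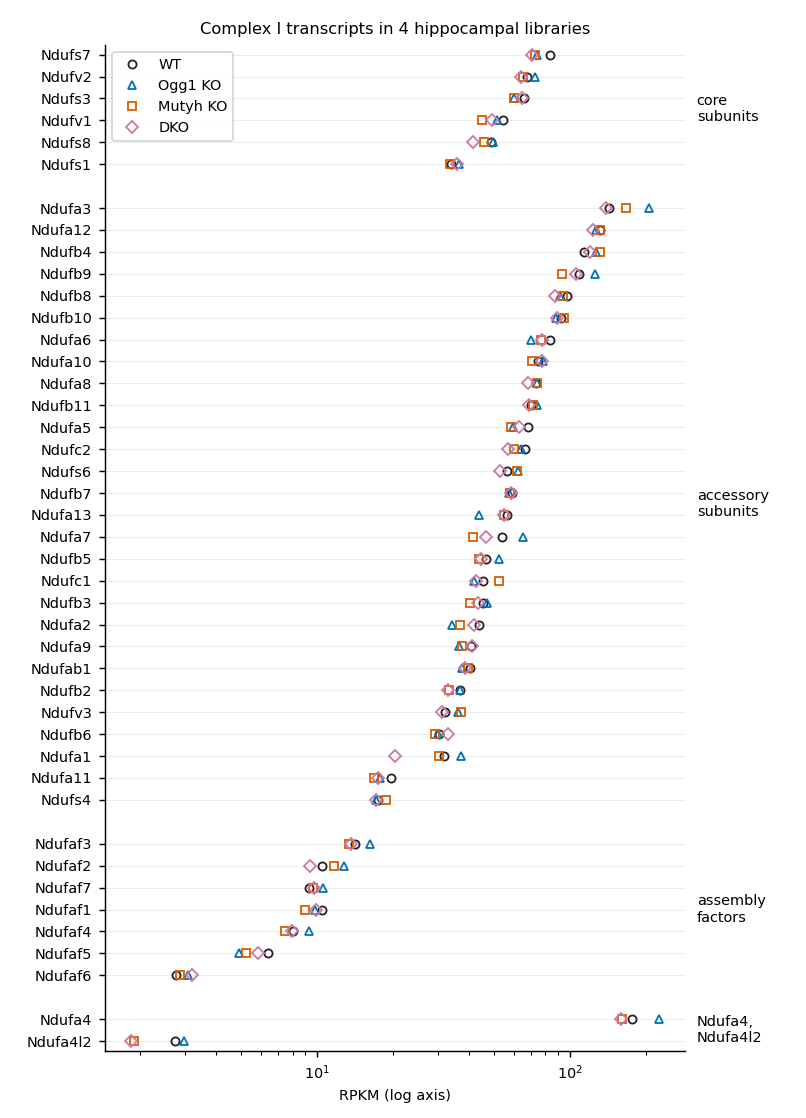
RPKM (log axis) of 43 complex I genes in the 4 libraries, 1 symbol per library, grouped by role and ordered by mean level. Core and accessory subunits lie mostly between 17 and 206 RPKM and assembly factors between 2.75 and 16.2 RPKM, and the symbols of 1 gene mostly lie closer together than those of different genes.

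Accessory subunits spanned a wider range of levels, from 17.0 RPKM for Ndufs4 and 16.7 RPKM for Ndufa11 to 206 RPKM for Ndufa3. The deposited gene length of Ndufa11, 2661 bases, is longer than any coding transcript of the gene in the GENCODE M21 annotation (493 to 918 bases), and reads covered 58.2% to 64.9% of it, so its RPKM is low for its reads. The 28 genes together took 1246, 1257, 1219 and 1190 reads per M in WT, Ogg1 KO, Mutyh KO and DKO. Relative to WT this was 1.01-fold (0.990 to 1.03), 0.978-fold (0.960 to 0.996) and 0.955-fold (0.937 to 0.973). Split by position, the 16 core and accessory genes of the matrix arm had median log2 ratios of -0.04, -0.11 and -0.08, and the 18 accessory genes of the membrane arm 0.00, -0.05 and -0.05; Ndufab1, the acyl carrier protein, belongs to both arms and was left out of this split.

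Ndufa3, a small membrane arm subunit, had 903, 1225, 1001 and 882 reads in WT, Ogg1 KO, Mutyh KO and DKO (143, 206, 167 and 139 RPKM). Ogg1 KO stood apart, at 1.44-fold of WT (1.32 to 1.58), and DKO was close to WT at 0.972-fold (0.885 to 1.07). Ndufa1, a membrane arm subunit encoded on the X chromosome, had 297, 326, 269 and 191 reads (31.8, 37.1, 30.4 and 20.3 RPKM). DKO was the low library for Ndufa1, at 0.640-fold of WT (0.531 to 0.770), 0.548-fold of Ogg1 KO (0.456 to 0.657) and 0.669-fold of Mutyh KO (0.553 to 0.808). These were the lowest folds of any member in the comparisons of DKO with WT, Ogg1 KO and Mutyh KO.

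Reads from Ndufa1 covered 83.5% to 88.8% of its length, with DKO at 87.6%. Rnf113a1, which starts head to head with Ndufa1, had 84, 69, 72 and 78 reads and was not low in DKO. Xist had 14, 23, 10307 and 29 reads in WT, Ogg1 KO, Mutyh KO and DKO, and the part of sex in the Ndufa1 values was not tested. Ndufb11, the other member on the X chromosome, had 1085, 1075, 1050 and 1067 reads, and each of its 3 intervals relative to WT included 1.

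Ndufa2, a thioredoxin-like subunit of the matrix arm, had 421, 307, 335 and 401 reads in WT, Ogg1 KO, Mutyh KO and DKO (43.9, 34.1, 36.9 and 41.6 RPKM). Both single knockouts were below WT, at 0.776-fold (0.668 to 0.901) and 0.841-fold (0.726 to 0.973), and DKO was at 0.948-fold (0.825 to 1.09). Ndufa13, also known as the cell death regulator GRIM-19, had 1292, 942, 1189 and 1269 reads (56.3, 43.7, 54.8 and 55.1 RPKM). Ogg1 KO alone was low for Ndufa13, at 0.776-fold of WT (0.713 to 0.845), and reads covered 44.6% of its length there, while WT, Mutyh KO and DKO had 53.6%, 48.0% and 53.7%.

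Ndufa7, a matrix arm subunit, had 473, 534, 341 and 410 reads in WT, Ogg1 KO, Mutyh KO and DKO (54.2, 65.1, 41.3 and 46.7 RPKM). Its fold to WT was 1.20 (1.06 to 1.36), 0.762 (0.661 to 0.877) and 0.863 (0.754 to 0.987), so Ogg1 KO was above WT and both Mutyh-null libraries below it. Its head-to-head neighbour Rps28, a cytosolic ribosomal protein gene, had 821, 1148, 743 and 736 reads and was ordered the same way except that DKO, not Mutyh KO, was the lower of the pair in RPKM. Ndufa7 and Rps28 do not overlap in GENCODE M21. Of the 18 members with a compared head-to-head neighbour within 1000 bases, 7 overlap it, among them Ndufa11, Ndufb5, Ndufb11, Ndufs1, Ndufs3 and Ndufs6, and without knowledge of strand the reads of the overlap cannot be told apart. In 7 of the 18 pairs the same library was highest for both genes. No such share was computed for other pairs of genes. Ogg1 KO was the highest library for 21 of the 44 members and for 28.9% of all compared genes.

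Ndufa6, an LYR-motif protein that binds the acyl carrier subunit, had 847, 670, 740 and 789 reads in WT, Ogg1 KO, Mutyh KO and DKO (83.5, 70.3, 77.1 and 77.4 RPKM). WT was the highest library for Ndufa6 and Ogg1 KO the lowest, at 0.842-fold of WT (0.760 to 0.933). Ndufv3, a small subunit at the flavin-bearing tip, had 926, 984, 1018 and 906 reads (32.1, 36.3, 37.2 and 31.2 RPKM). Ndufv3 was above WT in both single knockouts, at 1.13-fold (1.03 to 1.24) and 1.16-fold (1.06 to 1.27), and DKO was beside WT at 0.974-fold (0.888 to 1.07).

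Among further membrane arm subunits, Ndufb4 had 933, 982, 1028 and 990 reads (113, 127, 132 and 120 RPKM) and was the accessory subunit for which WT was the lowest library. The deposited length of Ndufb4, 454 bases, is shorter than its GENCODE M21 coding transcript of 971 bases, so its RPKM may be high for its reads. Ndufb6 had 295, 273, 269 and 321 reads (30.5, 30.0, 29.4 and 33.0 RPKM), and its 3 intervals relative to WT included 1. Ndufc1 had 339, 295, 371 and 322 reads (45.2, 41.9, 52.3 and 42.7 RPKM), with Mutyh KO highest at 1.16-fold of WT (0.995 to 1.34).

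The remaining 18 accessory subunits lay between 0.853-fold and 1.16-fold of WT in all 3 knockout libraries. Ndufs4, whose loss in mice gives a model of Leigh syndrome, had 486, 447, 492 and 476 reads in WT, Ogg1 KO, Mutyh KO and DKO, and each interval relative to WT included 1. Ndufb9 had 1280, 1391, 1042 and 1255 reads and was the widest of these, at 1.16-fold of WT in Ogg1 KO (1.07 to 1.249) and 0.860-fold in Mutyh KO (0.792 to 0.934). RefSeq names pseudogenes after Ndufa11, Ndufa12, Ndufab1 and Ndufs6; reads that match a near-identical copy may be missing from a count of unique reads, which leaves the values of these 4 genes uncertain.

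The promoters of several members hold the core motif of NRF1, a regulator of nuclear genes for mitochondrial proteins. The sequences below show where it lies in 4 promoters with different positions of the match, and Ndufa3, the member furthest above WT in Ogg1 KO, is shown beside them. They run 5′ to 3′ on the strand of the gene and end at the base before the RefSeq start site, in the build GRCm38.p6 (the deposited tables used mm9). Capitals mark matches to the NRF1 core GCGCATG or the Sp1 box GGGCGG on either strand. The locations are chr2:36049339-36049438 on the minus strand (Ndufa8), chr4:40279422-40279521 minus (Ndufb6), chr15:82354292-82354391 minus (Ndufa6), chr17:56717700-56717761 plus (Ndufa11, the 62 bases clear of the neighbouring gene) and chr7:3617273-3617372 plus (Ndufa3).
Ndufa8: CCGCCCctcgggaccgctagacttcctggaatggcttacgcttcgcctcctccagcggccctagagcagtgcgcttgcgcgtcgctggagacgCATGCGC
Ndufb6: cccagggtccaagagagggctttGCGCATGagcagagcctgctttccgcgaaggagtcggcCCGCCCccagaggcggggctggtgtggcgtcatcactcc
Ndufa3: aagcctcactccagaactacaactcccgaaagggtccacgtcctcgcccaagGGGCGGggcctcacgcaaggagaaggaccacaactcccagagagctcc
Ndufa6: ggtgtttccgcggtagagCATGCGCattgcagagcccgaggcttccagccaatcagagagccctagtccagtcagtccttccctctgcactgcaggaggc
Ndufa11: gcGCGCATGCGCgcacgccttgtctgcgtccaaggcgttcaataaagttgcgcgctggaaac
In Ndufa11 the match on the plus strand and that on the minus strand overlap in a palindrome, and in Ndufa8 the match ends at the base before the start site.

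Of the 44 members, 38 had a promoter window of 300 bases in the RefSeq table, from 250 before the start site to 50 after it. The NRF1 core was present in 7 of 38 windows (18.4%), compared with 7.78% of the 10442 compared genes with a window. Besides Ndufa6, Ndufa8, Ndufa11 and Ndufb6, these were Ndufb8, Ndufaf4 and Ndufaf5. The YY1 letters AAGATGG were in 7 windows (18.4% against 8.27%), all downstream of the start on the sense strand, and the same letters can spell the surroundings of a start codon. The Sp1 box was in 20 (52.6% against 69.5%), the ETS letters CCGGAAG in 5 (13.2% against 19.0%) and TATAAA in 4 (10.5% against 8.62%). Both strands were searched in each case; a match describes the letters and is not a measured binding site.

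The 7 assembly factors were the least abundant group, with a median of 9.28 RPKM in WT against 60.3 for the 6 core and 56.4 for accessory subunits. As a group they took 109, 116, 102 and 107 reads per M in WT, Ogg1 KO, Mutyh KO and DKO. The folds to WT were 1.06 (0.998 to 1.13), 0.940 (0.881 to 1.003) and 0.979 (0.919 to 1.04), and each of these intervals includes 1. The median log2 ratio was 0.17 in Ogg1 KO, with 5 of the 7 genes above WT, -0.07 in Mutyh KO and -0.06 in DKO.

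Ndufaf5, which hydroxylates an arginine of Ndufs7, had 318, 229, 245 and 290 reads in WT, Ogg1 KO, Mutyh KO and DKO (6.42, 4.92, 5.23 and 5.83 RPKM). WT was highest, and the folds were 0.766 (0.644 to 0.911), 0.814 (0.686 to 0.965) and 0.908 (0.771 to 1.07). Its deposited length of 2732 bases exceeds the 1166 bases of its GENCODE M21 coding transcript, with 54.9% to 68.8% of it covered, so its RPKM is low for its reads. Ndufaf7, a methyltransferase, had 387, 413, 382 and 409 reads (9.28, 10.5, 9.67 and 9.76 RPKM), and each interval relative to WT included 1.

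Ndufaf3 and Ndufaf4 act together in an early step of assembly. Ndufaf3 had 280, 301, 251 and 270 reads in WT, Ogg1 KO, Mutyh KO and DKO (14.2, 16.2, 13.4 and 13.6 RPKM), and Ndufaf4 had 528, 577, 463 and 528 (8.02, 9.33, 7.43 and 7.99 RPKM). Both were highest in Ogg1 KO and lowest in Mutyh KO, and Ndufaf4 in Ogg1 KO was at 1.16-fold of WT (1.03 to 1.31). Ndufaf1, a member of the complex that assembles the membrane arm, had 274, 243, 223 and 262 reads (10.4, 9.84, 8.96 and 9.92 RPKM).

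Ndufaf2, a paralog of Ndufa12 that is released late in assembly, had 132, 151, 139 and 119 reads (10.5, 12.7, 11.6 and 9.39 RPKM). DKO was its lowest library, at 0.737-fold of Ogg1 KO (0.575 to 0.943), while each interval relative to WT included 1. Ndufaf6 was the least abundant assembly factor, with 54, 57, 53 and 63 reads (2.75, 3.09, 2.86 and 3.20 RPKM). Its interval relative to WT ran from 0.761 to 1.66 in Ogg1 KO, so a difference of the size seen in other members was not detectable at this depth.

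Ndufa4 is now known as a subunit of cytochrome c oxidase, despite its name. It had the highest mean RPKM of the members over the 4 libraries, with 1569, 1883, 1359 and 1422 reads in WT, Ogg1 KO, Mutyh KO and DKO (176, 225, 161 and 159 RPKM); in Mutyh KO Ndufa3 was higher, at 167 RPKM. Ogg1 KO was above WT at 1.28-fold (1.19 to 1.37), and both Mutyh-null libraries were below it at 0.915-fold (0.851 to 0.985) and 0.902-fold (0.839 to 0.970). Ndufa4l2, its hypoxia-induced paralog, had 49, 50, 32 and 33 reads (2.74, 2.98, 1.89 and 1.84 RPKM). Although Ndufa4l2 was over 20% lower in Mutyh KO and DKO, its intervals of 0.428 to 1.10 and 0.418 to 1.06 include 1.

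Because Mutyh KO and DKO lack Mutyh while WT and Ogg1 KO carry it, the order of the 4 libraries was compared gene by gene. In 17 of the 44 members both Mutyh-null libraries had a lower RPKM than both others (19.6% of all compared genes), and in 0 of 44 both were higher (18.3%). The 17 included the core subunits Ndufs7, Ndufs8, Ndufv1 and Ndufv2, the accessory subunits Ndufa1, Ndufa7, Ndufa11, Ndufb2, Ndufb3, Ndufb5, Ndufb9 and Ndufc2, the assembly factors Ndufaf3 and Ndufaf4, and Ndufa4 and Ndufa4l2. When ribosomal RNA and choroid plexus genes were taken out of the library totals, 16 of 44 were lower and 0 higher. The WT library was highest for 15 members (25.9%) and lowest for 3 (30.7%), namely Ndufb4, Ndufaf6 and Ndufaf7.

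The same order was seen in other genes of oxidative phosphorylation and in ribosomal protein genes. Both Mutyh-null libraries were below both others in 18 of 39 subunits of complexes II to V and above in 3 of 39, and the counts were 34 and 3 of 80 for cytosolic ribosomal proteins. Mitochondrial ribosomal proteins gave 22 and 7 of 76. Members are short, with a median deposited length of 779 bases against 2888 over all compared genes, and of the 939 compared genes of up to 1000 bases 24.8% were lower and 15.5% higher. The order was therefore not seen in complex I genes alone, and its relation to gene length was not tested.

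**Figure D3:**
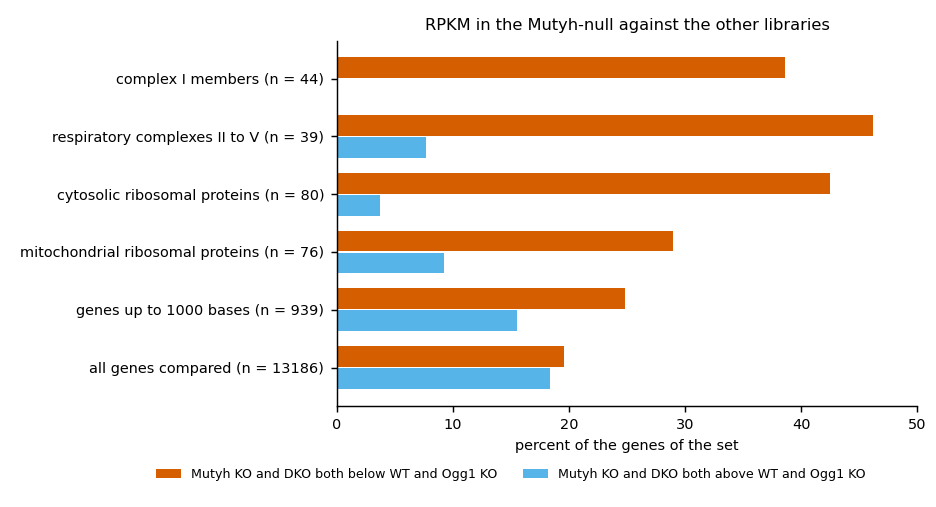
Percent of the genes of each set in which both libraries labelled as lacking Mutyh had lower RPKM (orange), or higher RPKM (blue), than both WT and Ogg1 KO. Complex I members (38.6% and 0%) resemble complexes II to V and cytosolic ribosomal proteins, and all compared genes are nearly even (19.6% and 18.3%).

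The Ogg1-null libraries gave no such order: Ogg1 KO and DKO were both below WT and Mutyh KO in 6 of 44 members (14.4%) and both above in 4 (13.3%). Among members, 21 had their highest RPKM in Ogg1 KO (28.9%) and 17 their lowest in DKO (24.7%).

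Loss of Mutyh can be read in 2 pairs that share no library, as Mutyh KO over WT and as DKO over Ogg1 KO. In DKO over Ogg1 KO, 6 members were at least 20% lower (4.88%), namely Ndufa1, Ndufa3, Ndufa4, Ndufa7, Ndufaf2 and Ndufa4l2, and 1 was at least 25% higher, Ndufa13 (3.66%). Counting intervals there were below 1 for 15 members (19.8%) and above 1 for 3 (14.1%), or for 5 with median-of-ratios scaling, TMM scaling or totals without ribosomal RNA and choroid plexus genes. In 21 of 44 genes both readings were below 0 (26.4%), and in 3 both were above (25.3%). By construction the 21 include the 17 members with both Mutyh-null libraries below both others, so this count is not separate from that one. The 4 members with both intervals below 1 were Ndufa4, Ndufa7, Ndufb9 and Ndufc2 (4.67%). Across the 44 genes, which are not independent replicates, the log2 ratios of the readings had a Pearson r of -0.05, beside -0.01 across all compared genes. In members, as in all compared genes, the sizes in 1 background did not follow those in the other.

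Loss of Ogg1 was read as Ogg1 KO over WT and as DKO over Mutyh KO. In the latter, Ndufa1 was the 1 member at least 20% lower (4.14%) and 0 were higher (1.22%), and intervals lay above 1 for 6 members (9.79%) and below 1 for 6 (13.4%). Those above included the core subunits Ndufs1 and Ndufv1 with Ndufa9, Ndufa10 and Ndufb9; those below were all accessory subunits, Ndufa1, Ndufa3, Ndufb4, Ndufc1, Ndufs6 and Ndufv3. Intervals lay on opposite sides of 1 in the 2 readings for 3 members with loss of Mutyh (7.57%) and for 4 with loss of Ogg1 (7.85%). The Pearson r between the readings of Ogg1 loss was -0.34 across the members and -0.19 across all compared genes.

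**Figure D4:**
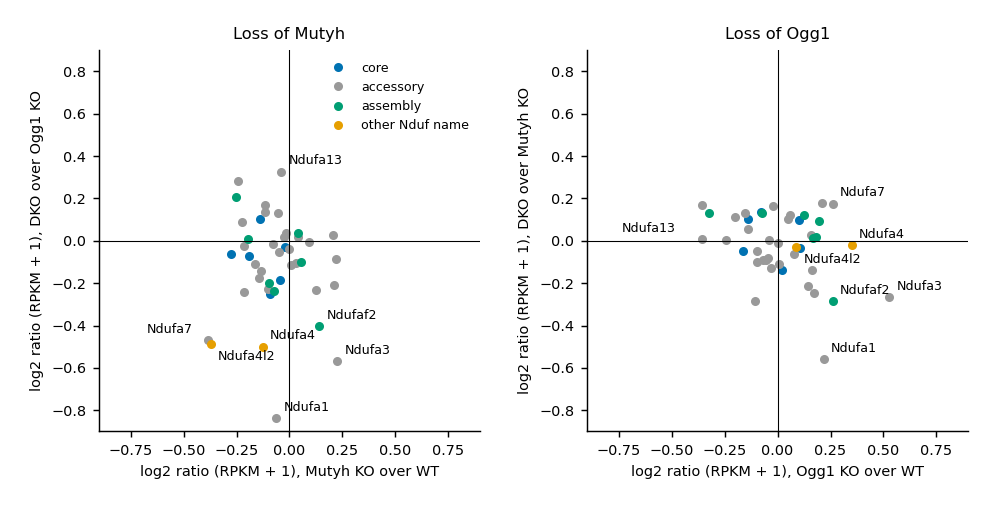
Log2 ratio of RPKM + 1 for loss of Mutyh (left; Mutyh KO over WT against DKO over Ogg1 KO) and loss of Ogg1 (right; Ogg1 KO over WT against DKO over Mutyh KO), 1 point for each of 43 members, coloured by role. Most members lie within 0.25 of 0 on both axes, and the labelled genes lie further out in at least 1 comparison.

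Other genes related to complex I were read from lists. Of 12 further genes listed as assembly factors, 9 were above the limit for comparison, with median log2 ratios to WT of -0.10, -0.01 and -0.03 for Ogg1 KO, Mutyh KO and DKO. The list includes Cox7a2l, which is not specific to complex I and whose own ratio in Ogg1 KO is the median of -0.10. Tmem126b, a partner of Ndufaf1, had 229, 157, 150 and 173 reads and was below WT in all 3 knockouts, at 0.730-fold (0.592 to 0.898), 0.692-fold (0.560 to 0.854) and 0.752-fold (0.614 to 0.920). Tmem70, which assists ATP synthase and complex I assembly, had 619, 443, 533 and 563 reads, with Ogg1 KO at 0.762-fold (0.673 to 0.862).

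The 14 genes of iron-sulfur cluster assembly had medians of 0.01, 0.01 and -0.06 in Ogg1 KO, Mutyh KO and DKO, and 0 were 25% higher or 20% lower than WT in any of the 3. Among them Fdxr, ferredoxin reductase, had 193, 155, 141 and 185 reads. The 11 regulators of mitochondrial biogenesis had medians of 0.02, 0.05 and -0.00. Tfb1m, a mitochondrial ribosomal RNA methylase, had 50, 84, 51 and 71 reads, and the coactivator Ppargc1b had 422, 294, 416 and 422, low in Ogg1 KO at 0.741-fold (0.637 to 0.863).

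The 10 mitochondrial proteases and prohibitins had medians of 0.01, -0.05 and 0.01. Yme1l1, an inner membrane protease, had 1533, 1445, 1426 and 1187 reads, with DKO at 0.771-fold of WT (0.714 to 0.832), and the matrix protease subunit Clpp had 752, 563, 692 and 635. The 39 subunits of complexes II to V had medians of 0.01, -0.06 and -0.05, beside 0.01, -0.08 and -0.07 for the complex I genes. Of the 39, 3 were at least 25% higher than WT in Ogg1 KO and 0 were 20% lower, and in Mutyh KO and DKO 0 passed either limit. The furthest of these were Cox6b1, with 1839, 2418, 1639 and 1757 reads, and Atp5k, with 453, 597, 402 and 401, both at 1.40-fold of WT in Ogg1 KO, as Ndufa4 and Ndufa3 were high there.

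Ndufs5, left out by the rule, had 151, 135, 36 and 36 reads in WT, Ogg1 KO, Mutyh KO and DKO, while BC002163, which RefSeq names Ndufs5-ps, had 1, 1, 124 and 149. The rule read the deposited symbols and so missed 1810043H04Rik, which RefSeq names Ndufaf8. It had 86, 103, 59 and 79 reads in the same order and is in none of the counts of members. The mitochondrially encoded subunits were not listed under their names and were not analysed here.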

How the data were processed

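RNA was measured in 4 libraries, 1 per genotype, grouped by the genotype labels (DKO by its title). Per the labels' protocols, RNA was isolated on RNeasy columns and made into standard Illumina libraries. Per the submitters' processing notes the build was mm9; for the aligner, counter, annotation and strand setting, the entry is: not given in the sources used here. In the tables, per the file headers, the authors deposited for each gene a count of unique reads, the gene length, the percent of that length covered by reads, and RPKM computed from the library total in the header.

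A gene not listed in a library was taken as 0. Genes with a mean of at least 1 RPKM over the libraries were compared. Log2 ratios used RPKM plus a pseudocount of 1; folds are ratios of reads per library total with exact conditional 95% intervals (binomial, Clopper-Pearson), for counting error only. With 1 library per group no test was run, in 5 comparisons of libraries. Library totals of 17.02 M to 18.20 M reads (M, mega) set the precision. Members and lists were chosen with earlier results of these data known, so they support nothing by themselves. The rule for values in all libraries named 26 members, of which 25 are given: every core subunit and Nduf assembly factor, the 4 highest and 4 lowest members in each knockout against WT, and those at least 25% higher or 20% lower with an interval that excludes 1; other members, and for each further list the 2 genes with the widest ratio, follow in brief. Ndufs4, Ndufb9, Ndufb11 and the head-to-head neighbours were named after their values were seen. A core subunit and a gene of a further list are not reported here singly; counts and sums over all 44 members include the former.

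Promoter windows, pseudogene names and symbols came from RefSeq tables for GRCm38.p6, where all 44 members matched by gene ID, and transcript lengths and neighbours within 1000 bases from GENCODE M21. Alternatives were other scalings (median of ratios, TMM, totals without ribosomal RNA and choroid plexus genes), pseudocounts of 0.1 and 5 RPKM, no filter, and a mean of at least 100 reads. Python 3.11.15 with pandas 2.3.3, numpy 2.4.6 and scipy 1.17.1 was used, and edgeR 4.0.16 in R 4.3.3 for TMM factors only. The calculation was tested on simulated data.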

Additional observations from a re-analysis of the deposited data

Results flagged for a closer look

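For 5 members the counting intervals of losing the same gene lay on opposite sides of 1 in the 2 backgrounds. For loss of Mutyh, the log2 ratio of DKO over Ogg1 KO minus that of Mutyh KO over WT was 0.53 for Ndufa2, -0.79 for Ndufa3 and -0.42 for Ndufv3; 3 of 44 members met this rule, as did 7.57% of all compared genes. For loss of Ogg1, the log2 ratio of DKO over Mutyh KO minus that of Ogg1 KO over WT was -0.79 for Ndufa3, 0.29 for Ndufa9, -0.30 for Ndufb4 and -0.42 for Ndufv3, or 4 of 44 members beside 7.85% of all compared genes. Both differences of a gene are the same quantity, so Ndufa3 and Ndufv3 count once. Ndufa3 was 1.44-fold of WT in Ogg1 KO and 0.830-fold of Mutyh KO in DKO (0.757 to 0.910), and Ndufa2 was 0.841-fold of WT in Mutyh KO and 1.22-fold of Ogg1 KO in DKO (1.05 to 1.42). Ndufa9, a membrane-facing subunit of the matrix arm, was 0.896-fold of WT in Ogg1 KO (0.816 to 0.984) and 1.10-fold of Mutyh KO in DKO (1.001 to 1.21). With 1 library per genotype these differences were not tested.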

How the results depend on the processing

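Of 764 values recomputed under an alternative, 756 stayed within the limits set for them, 8 moved further and 0 of the called values changed sign. Among the values close to 0, 4 took the other sign. The limit for a log2 ratio came from its counting interval, and a count could change by a set factor. Many values could not move: all 44 members passed the filter, so leaving it out changes no member value. The ratio of a single gene does not depend on the filter at 100 reads either. With a pseudocount of 5 RPKM or a filter at a mean of 100 reads, the members at least 20% lower than WT went from 2 to 1 in Mutyh KO and from 2 to 1 in DKO. The pseudocount of 5 RPKM also left 0 members at least 25% higher in DKO than in Ogg1 KO, from 1. Members with an interval above 1 in DKO over Ogg1 KO went from 3 to 5 with median-of-ratios scaling, TMM scaling and totals without ribosomal RNA and choroid plexus genes. The counts of members with both Mutyh-null libraries below the others, an alternative added after the data were seen, ranged from 16 to 18 of 44, and the counts above stayed at 0. No paired analysis was possible because each genotype has 1 library and the labels give no replicate numbers; for the same reason no library could be left out. Members with few reads, such as Ndufa4l2 with 32 to 50, could show only large differences.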
